A study of Mus musculus with 12 samples.

Results

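The 10 genes described here make up much of the molecular circadian clock: Arntl, Clock, Ciart, Per1, Per2, Per3, Cry1, Nr1d1, Nr1d2 and Dbp. They were taken by symbol from the 28116 genes of the table. The set was built around Ciart because Ciart was higher with the anti-miR-106b inhibitor than with the scrambled inhibitor in muscles collected at day 7. The members were thus chosen by measured values, the log2 fold changes at day 7, and values of that contrast are given as a description only.

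The tissue was tibialis anterior muscle, a muscle of the lower leg, of 4-month-old mice of the strain C57BL/10ScSn-Dmdmdx/J (mdx), which lack functional dystrophin and model Duchenne muscular dystrophy. Every muscle had been injected with cardiotoxin, a venom toxin that destroys muscle fibres and starts regeneration, so all groups carry both the mutation and the injury. The groups were anti-miR-106b day 7, scrambled day 7, anti-miR-106b day 3 and scrambled day 3, with 3 libraries each, and the question was what the inhibitor changes in regenerating muscle. Each group held 3 animals by the study's description, which does not say if muscles of different groups came from the same animal. The description also gives another later day once, whereas the label of each library says day 3 or day 7. Mature miR-106b was not analysed here, so the inhibition itself was not checked. The labels used here give no hour of collection, light schedule or feeding time, so the groups cannot be compared by time of day.

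The clock is a feedback loop that runs in nearly every cell. ARNTL (BMAL1) and CLOCK form a dimer that binds E-boxes and switches on the Per and Cry genes, whose proteins return to the nucleus and block the dimer. Ciart (CHRONO) is a further repressor that is switched on through E-boxes and acts on the same dimer. Nr1d1 and Nr1d2 (REV-ERB alpha and beta) encode nuclear receptors that repress Arntl, and Dbp encodes a factor that activates genes through D-boxes, Per genes among them. In mouse skeletal muscle, Arntl and Dbp swing with large amplitude and nearly opposite phases, Nr1d1 and Per3 run close to Dbp, and Clock itself swings little.

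The promoters were searched for the motifs that these arms of the loop bind, and 3 of them are printed because they hold the matches that stand out in the set. RefSeq windows (GRCm38.p6) from 250 bases before to 50 bases after the start were on hand for 9 of the 10 genes. The search used the E-box CACGTG, the D-box TTATGTAA, which the other strand reads as TTACATAA, and AGGTCA, the core that ROR and REV-ERB receptors bind, which the other strand reads as TGACCT. Both strands were searched. These motifs share no overlap in the windows printed. Capitals mark E-boxes in Ciart and Cry1 and D-boxes in Per3, and each window reads 5′ to 3′ along its gene's strand. Ciart lies on the minus strand at chr3:95882179-95882478, Cry1 on the minus strand at chr10:85185005-85185304 and Per3 on the minus strand at chr4:151044616-151044915.
Ciart: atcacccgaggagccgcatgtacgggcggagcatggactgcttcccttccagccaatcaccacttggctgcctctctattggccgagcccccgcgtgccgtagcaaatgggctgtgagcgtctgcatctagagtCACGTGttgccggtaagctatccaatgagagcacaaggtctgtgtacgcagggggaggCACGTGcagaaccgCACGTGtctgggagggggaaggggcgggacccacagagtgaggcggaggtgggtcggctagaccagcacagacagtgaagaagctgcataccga
Cry1: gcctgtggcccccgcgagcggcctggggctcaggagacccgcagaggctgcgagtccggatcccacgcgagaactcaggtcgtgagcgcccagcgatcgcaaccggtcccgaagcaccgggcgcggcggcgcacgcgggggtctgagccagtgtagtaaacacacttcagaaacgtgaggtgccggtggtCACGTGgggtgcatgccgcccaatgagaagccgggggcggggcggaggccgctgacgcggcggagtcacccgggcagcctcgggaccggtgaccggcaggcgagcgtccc
Per3: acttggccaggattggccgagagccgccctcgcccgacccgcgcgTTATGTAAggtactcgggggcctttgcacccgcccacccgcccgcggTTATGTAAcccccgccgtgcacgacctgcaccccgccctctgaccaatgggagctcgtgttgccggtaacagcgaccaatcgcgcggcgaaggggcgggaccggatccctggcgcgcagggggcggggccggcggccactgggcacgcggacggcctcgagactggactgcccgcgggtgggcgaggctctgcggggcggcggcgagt
Ciart held 3 E-boxes, with first bases at -116, -58 and -44 relative to the start. Among all 32544 promoters given by RefSeq, 7.17% held an E-box and 0.0891% held 3 or more. Cry1 held 1 E-box, at -60, and Per1 held 1 in the first of its windows, at -166. Per3 held 2 D-boxes, where 0.931% of all promoters held a D-box and 0.0215% held 2 or more. These 9 genes have 13 windows in all, and 4 of them held the receptor core, 1 each of Per1, Arntl, Clock and Nr1d2, where 16.2% of all promoters held it. A match describes these letters in this window and is not a measured binding site.

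The inhibitor's own target sequence is shown because seed matches decide which messages a microRNA can pair with. The mature microRNAs below share their seed, bases 2 to 8, in capitals. mmu-miR-106b-5p comes from chr5:138165787-138165807 on the minus strand and mmu-miR-93-5p from the same cluster at chr5:138165574-138165596.
mmu-miR-106b-5p: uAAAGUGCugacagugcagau
mmu-miR-93-5p: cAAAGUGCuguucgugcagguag
mmu-miR-17-5p: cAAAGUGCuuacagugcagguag
The match to this seed, GCACTTT, was searched in 3′ UTRs, the longest that GENCODE M21 (GRCm38) gives for each gene, and occurred in 13% of 17288 genes. Of the 10 clock genes, Clock alone held it, 4 times in a 3′ UTR of 6831 bases. The sites lie on the minus strand at chr5:76215662-76215691, chr5:76212840-76212869, chr5:76211551-76211580 and chr5:76210750-76210779. The second is followed by A, an 8-base match (GCACTTTA) that 3.96% of genes hold.
Clock site 1: aaacattttagGCACTTTtttaacattctc
Clock site 2: aaaggtaataaGCACTTTAttgcaattatt
Clock site 3: ctgattcatggGCACTTTttatacattcgt
Clock site 4: gctccagtataGCACTTTcatattcaccct
Ciart, whose longest annotated 3′ UTR has 261 bases, held no GCACTTT. Shorter or shifted seed matches, and other annotated 3′ UTRs, were not searched.

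The libraries held 28857739 to 42825246 reads, and all 10 genes reached 1 CPM (counts scaled to the size of the library) in all 12 of them. Values are the authors' log2 CPM. Counting error was largest for Ciart, with 40 to 115 reads per library and an error of 15.8% at the fewest reads, and next for Per2, with 56 to 263 reads and an error of 13.4% at the fewest. Per base of exon, the REV-ERB genes and Dbp were the most abundant. In scrambled day 3 muscle the mean level was 32.0 CPM per kilobase for Nr1d1, 16.2 for Nr1d2 and 15.4 for Dbp, against 2.70 for Per1, 2.56 for Cry1, 2.51 for Clock, 2.12 for Per3, 1.63 for Arntl, 1.02 for Ciart and 0.79 for Per2. The counting was not stated to use strand, and Dbp shares 539 exonic bases, 18% of its length, with Sphk2 on the other strand, while Nr1d1 shares 263, or 8.55%, with Thra.

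The samples are whole muscle, and fewer cells of a type cannot be told apart from less RNA per cell. Muscle fibre markers, which the labelled tissue should hold, were abundant throughout, and none of the 8 was at 0 in any group. Their summed level was 158900 to 175100 CPM in anti-miR-106b day 7, 168000 to 182000 in scrambled day 7, 60210 to 66470 in anti-miR-106b day 3 and 90330 to 107800 in scrambled day 3. The inhibitor arms thus overlapped at day 7 and did not at day 3. The 8 macrophage markers summed to 344.2 to 531.2, 324.7 to 508.9, 3596 to 3925 and 2651 to 2743 CPM in the same order of groups. The 8 endothelial markers summed to 250.1 to 275.9, 321.2 to 344.5, 223 to 244.3 and 204.2 to 220 CPM, so those ranges did not overlap between the arms on either day. The 8 markers of fibro-adipogenic progenitors, the connective tissue cells of muscle, summed to 3288 to 3634, 2810 to 4548, 8322 to 9496 and 7172 to 7835 CPM.

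**Figure D1:**
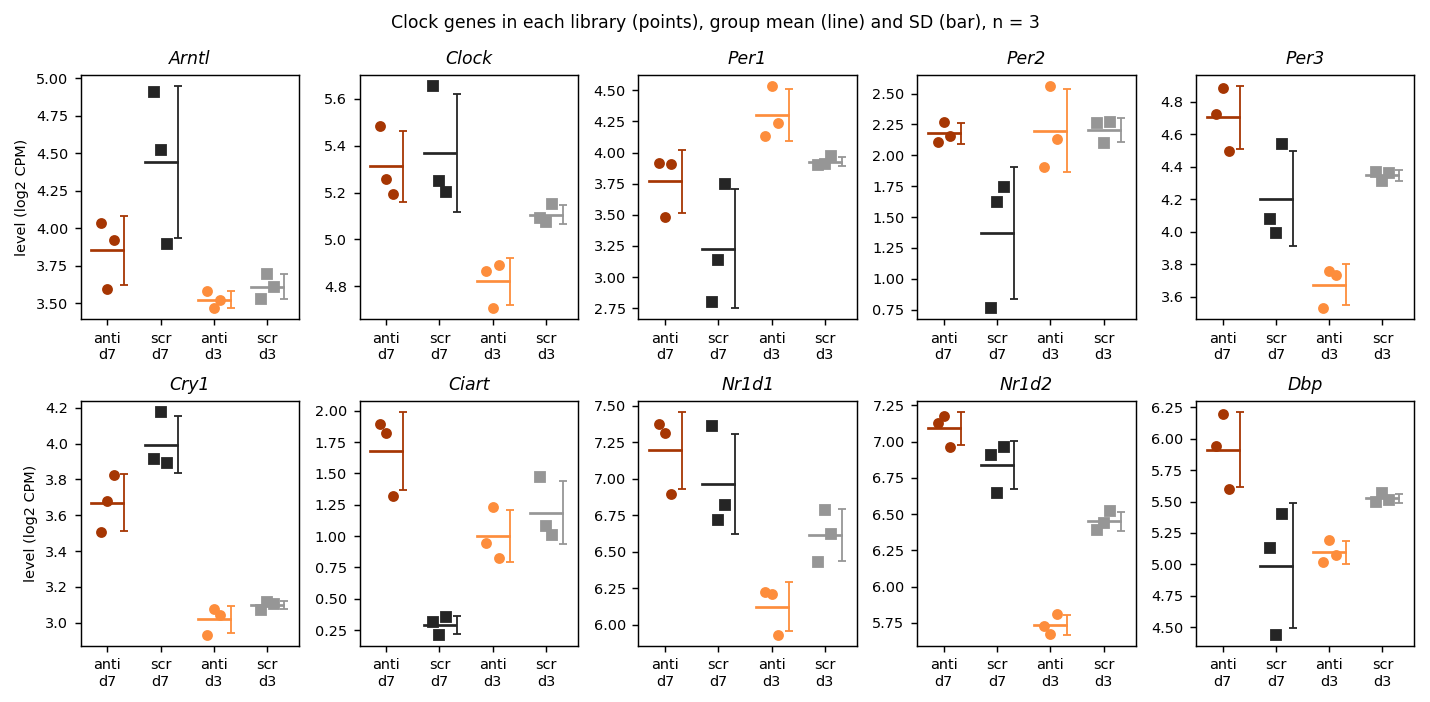
Level of each clock gene in every library (log2 CPM on the vertical axis), by group, with anti-miR-106b and scrambled muscle at day 7 on the left and at day 3 on the right. Points are libraries, horizontal lines are group means and bars are 1 SD (n = 3); the 3 scrambled day 7 libraries lie lowest for Ciart and spread widely for Arntl, Dbp, Per1 and Per2.

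At day 7 the contrast that chose the set reads as follows, without a test. Ciart was 2.62-fold higher with anti-miR-106b than with the scrambled inhibitor. Dbp and the 3 Per genes were also higher, by 0.50 to 0.92 on the log2 scale, while Arntl and Cry1 were lower. Clock and the REV-ERB genes differed by 0.25 or less in size. Over all of the genes, 0.064% of 14063 tested genes passed the threshold used throughout, an adjusted p below 0.05 in limma, and 0.00711% passed as higher. These values chose Ciart, the only one of those higher genes, with an adjusted p of 0.0205. The gene just outside the threshold among higher genes was Xbp1, 0.44 higher with an adjusted p of 0.0523. Libraries of the arms did not overlap for 3 clock genes that were higher and 1 that was lower, where 5.18% and 5.69% of all genes did so. Ciart, chosen for being higher here, is among those 3, so nothing is read from the count beside these shares.

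Of the repressors, Ciart was at 1.90, 1.82 and 1.32 log2 CPM in anti-miR-106b day 7 muscle, against 0.31, 0.21 and 0.35 in scrambled day 7 muscle. The scrambled libraries were close together, at 40 to 41 reads, and all lay under the inhibitor libraries, at 75 to 115 reads. The difference was 1.39 ± 0.19 (SE). Scrambled day 7 was also the lowest of the 4 groups for Ciart, with a mean of 0.29 ± 0.07 (SD, n = 3). It did not overlap the next group, anti-miR-106b day 3, at 1.00 ± 0.21 (SD, n = 3), and from there up each group overlapped its neighbour.

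Per2, a core repressor of the dimer, was at 2.11, 2.27 and 2.16 log2 CPM in anti-miR-106b day 7 muscle, against 0.76, 1.62 and 1.74 in scrambled day 7 muscle. The difference was 0.80 ± 0.22 (SE). The arms did not overlap, and 1 scrambled library lay well under the others, so that the scrambled group had most of the spread. Per1, its close relative, was at 3.92, 3.48 and 3.91 with anti-miR-106b, against 2.80, 3.14 and 3.75 with the scrambled inhibitor, a difference of 0.54 ± 0.19 (SE). Per3, which is dispensable for the rhythm itself, was at 4.73, 4.89 and 4.50, against 4.08, 3.99 and 4.54 in scrambled muscle, a difference of 0.50 ± 0.13 (SE). For both genes replicate 3 of scrambled day 7 reached into the inhibitor's range and the other scrambled libraries did not. Cry1, the repressor partner of the PER proteins, went the other way. It was at 3.51, 3.68 and 3.82 with anti-miR-106b and at 3.92, 4.18 and 3.89 with the scrambled inhibitor, a difference of -0.32 ± 0.10 (SE) without overlap.

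Arntl, the activator, was at 4.04, 3.60 and 3.92 log2 CPM in anti-miR-106b day 7 muscle, against 4.91, 4.52 and 3.90 in scrambled day 7 muscle. The difference was -0.59 ± 0.19 (SE), and here too scrambled replicate 3 lay among the inhibitor libraries. Clock, its partner, was the only gene of the set whose searched 3′ UTR held GCACTTT. It was at 5.48, 5.26 and 5.20, against 5.66, 5.25 and 5.20 in scrambled muscle, a difference of -0.06 ± 0.11 (SE) with full overlap. Nr1d1 was at 7.38, 7.31 and 6.89, against 7.36, 6.72 and 6.82, and Nr1d2 at 7.13, 7.18 and 6.96, against 6.91, 6.65 and 6.96 in scrambled muscle. These receptors overlapped between the arms, with differences of 0.23 ± 0.16 for Nr1d1 and 0.25 ± 0.09 for Nr1d2 (SE). Dbp, the output factor, was at 5.94, 6.20 and 5.60 with anti-miR-106b, against 5.13, 4.44 and 5.40 with the scrambled inhibitor, a difference of 0.92 ± 0.19 (SE). All 3 Dbp values of scrambled muscle lay under those of inhibitor muscle. Sphk2, its antisense neighbour, differed by -0.33 ± 0.12 (SE).

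Ratios between clock genes within a library do not depend on how libraries are scaled. The log2 ratio of Dbp to Arntl was 1.90, 2.60 and 1.68 in anti-miR-106b day 7, against 0.23, -0.08 and 1.50 in scrambled day 7. In anti-miR-106b day 3 it was 1.44, 1.73 and 1.55, against 1.97, 1.87 and 1.90 in scrambled day 3. Replicates 1 and 2 of scrambled day 7 thus stood apart from the other 10 libraries, in all of which Dbp was well above Arntl. The ratio of Per2 to Arntl was -1.93, -1.33 and -1.77 in anti-miR-106b day 7, against -4.15, -2.90 and -2.16 in scrambled day 7, with the same replicates at the low end. The ratio of Ciart to Cry1 was -1.61, -1.86 and -2.50 in anti-miR-106b day 7 and -3.60, -3.96 and -3.54 in scrambled day 7, so for that pair all 3 scrambled libraries were low and close together.

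**Figure D2:**
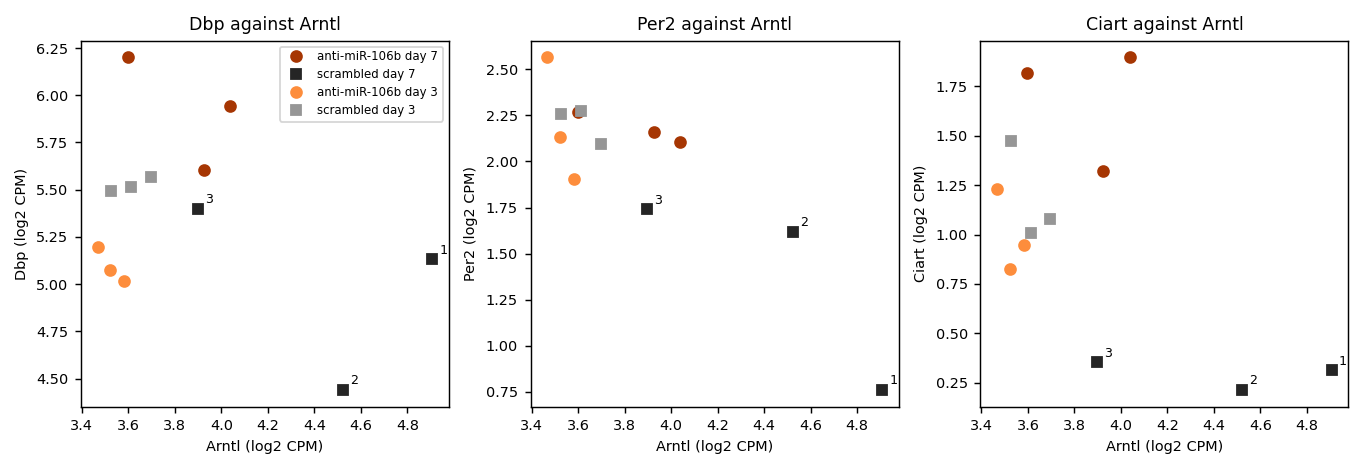
Dbp, Per2 and Ciart (vertical axes, log2 CPM) against Arntl (horizontal axis, log2 CPM) in the 12 libraries, coloured by group, with the scrambled day 7 replicates numbered. Replicates 1 and 2 of scrambled day 7 have the highest Arntl, at 4.91 and 4.52; replicate 3 lies beside the inhibitor libraries for Arntl and apart from them for Ciart.

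With single libraries left out, the day 7 difference of Ciart ranged from 1.28 to 1.56. That of Dbp ranged from 0.65 to 1.13, Arntl from -0.86 to -0.36 and Per2 from 0.50 to 0.99.

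The inhibitor at day 3 is a contrast that the choice of genes did not use, and there the pattern differed. Nr1d2, Per3 and Nr1d1 fell with anti-miR-106b, no clock gene passed as higher, and Ciart overlapped between the arms. These are 3 of the 10 genes, where 35.7% of all tested genes passed and 19.4% passed as lower, so the count is near that of the table. The fold changes were negative for 9 of the 10, with a median of -0.24 against 0.01 over all tested genes. The p-values set each difference against a spread per gene that was estimated from all 12 libraries, those of day 7 included. For Dbp the SD was 0.09 in anti-miR-106b day 3 and 0.04 in scrambled day 3, against 0.30 and 0.49 at day 7. An exact permutation test of 3 against 3 cannot give a p below 0.1, so single genes were tested in limma only.

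Nr1d2 was at 5.73, 5.67 and 5.81 log2 CPM in anti-miR-106b day 3 muscle, against 6.39, 6.44 and 6.52 in scrambled day 3 muscle. The libraries of each arm were tight and far from the other arm. The fold change was -0.71 ± 0.09 on the log2 scale (SE, adjusted p = 8.09e-05), or 0.61 times the scrambled level. Per3 was at 3.53, 3.76 and 3.73, against 4.37, 4.31 and 4.36 in scrambled muscle, again without overlap, with a fold change of -0.67 ± 0.13 (SE, adjusted p = 0.0017). Both calls held in all 22 alternative analyses. Nr1d1 was at 6.23, 6.21 and 5.93, against 6.43, 6.79 and 6.62 in scrambled muscle, with a fold change of -0.49 ± 0.16 (SE, adjusted p = 0.0314). The arms did not overlap, but this call was lost without anti-miR-106b day 3 replicate 2 (adjusted p = 0.0550) or replicate 3 (0.121), and without scrambled day 3 replicate 2 (0.126) or replicate 3 (0.0792). It was also lost with a prior variance that does not follow expression (0.0620). With libraries scaled by total reads, which moved the median of all genes by 0.20, Nr1d1 was at -0.30 (adjusted p = 0.132), or -0.50 relative to that median. Thra, the thyroid hormone receptor gene that overlaps Nr1d1 on the other strand, fell too, by 0.22 ± 0.08 (SE, adjusted p = 0.0494).

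The other genes missed the threshold at day 3. Dbp was at 5.02, 5.20 and 5.08 log2 CPM with anti-miR-106b, against 5.50, 5.57 and 5.52 with the scrambled inhibitor, a difference of -0.43 ± 0.19 (SE, adjusted p = 0.0936) without overlap. Its antisense neighbour Sphk2, which makes sphingosine 1-phosphate, moved the opposite way by 0.46 ± 0.12 (SE, adjusted p = 0.00805). Clock was at 4.86, 4.71 and 4.89, against 5.09, 5.08 and 5.15 in scrambled muscle, a difference of -0.29 ± 0.11 (SE, adjusted p = 0.0586). Clock thus lay lower in the inhibitor libraries, without overlap, and a link to its seed matches was not tested. Per1 was at 4.13, 4.54 and 4.24, against 3.90, 3.91 and 3.97, the only gene whose inhibitor libraries all lay above the scrambled ones, with a difference of 0.37 ± 0.19 (SE, adjusted p = 0.145). Per1 passed as higher with total-read scaling (0.56, adjusted p = 0.0399), with library weights (0.0104) and with the day 3 groups fitted alone (0.00358). In all, 5 genes lay lower and 1 higher without overlap, where 29.3% and 31.2% of all genes did so. Without scrambled day 7 replicate 3, which enters this contrast through the shared estimate of spread, Dbp (0.0458), Clock (0.0419) and Per1 (0.0416) passed and 6 genes were called. Dbp also passed without scrambled day 7 replicate 2 (0.0175), and Clock without replicate 1 of either day 7 group (0.0471 without the anti-miR-106b library and 0.0108 without the scrambled one). With library weights and with the day 3 groups fitted alone, Dbp and Clock passed as lower too, and 6 genes were called in each. Among the 22 alternatives Dbp passed in 4 and Clock in 8, with lowest adjusted p in limma of 4.64e-05 and 0.000207.

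Ciart was at 0.95, 1.23 and 0.82 log2 CPM in anti-miR-106b day 3 muscle, against 1.47, 1.08 and 1.01 in scrambled day 3 muscle. The arms overlapped, and the 95% interval of the difference ran from -0.59 to 0.22. Per2 was at 1.90, 2.56 and 2.13, against 2.26, 2.10 and 2.27, with an interval of -0.49 to 0.47 that leaves room for a change in either direction. Arntl was at 3.58, 3.47 and 3.52, against 3.53, 3.70 and 3.61, with an interval of -0.49 to 0.32. Cry1 was at 2.93, 3.08 and 3.04, against 3.07, 3.11 and 3.11, with an interval of -0.29 to 0.13. None of these 4 was called in any alternative. Scaling by total reads turned them to values of 0.00 to 0.18, which relative to the shifted median of all genes were -0.20 for Ciart, -0.02 for Per2, -0.10 for Arntl and -0.09 for Cry1.

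The muscle fibre markers moved along with these genes at day 3. Of the 8, 7 fell with anti-miR-106b and none rose, with a median of -0.72, where 35.7% of all genes passed and 19.4% passed as lower. Of 8 macrophage markers 3 rose and none fell, with a median of 0.40, where 2296 of the 14063 tested genes passed as higher. A ratio was computed to Pygm, the muscle glycogen phosphorylase gene and 1 of the fibre markers. The log2 ratio of Nr1d2 to Pygm was -5.12, -5.14 and -4.89 in anti-miR-106b day 3, against -5.09, -5.37 and -5.13 in scrambled day 3, so on that scale the arms overlapped. It was -5.49, -5.52 and -5.65 in anti-miR-106b day 7, against -5.83, -6.19 and -5.71 in scrambled day 7, without overlap. Pygm averaged 10.79 log2 CPM in anti-miR-106b day 3 and 11.65 in scrambled day 3, and Des, another of the 8, 12.23 and 12.37. The markers thus differed by unlike amounts, with Pygm the furthest apart of the 8 at day 3. Ratios to markers other than Pygm were not computed, so the overlap is known for Pygm only. The part of the fibre markers in the change of Nr1d2, Per3 and Nr1d1 was not tested.

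**Figure D3:**
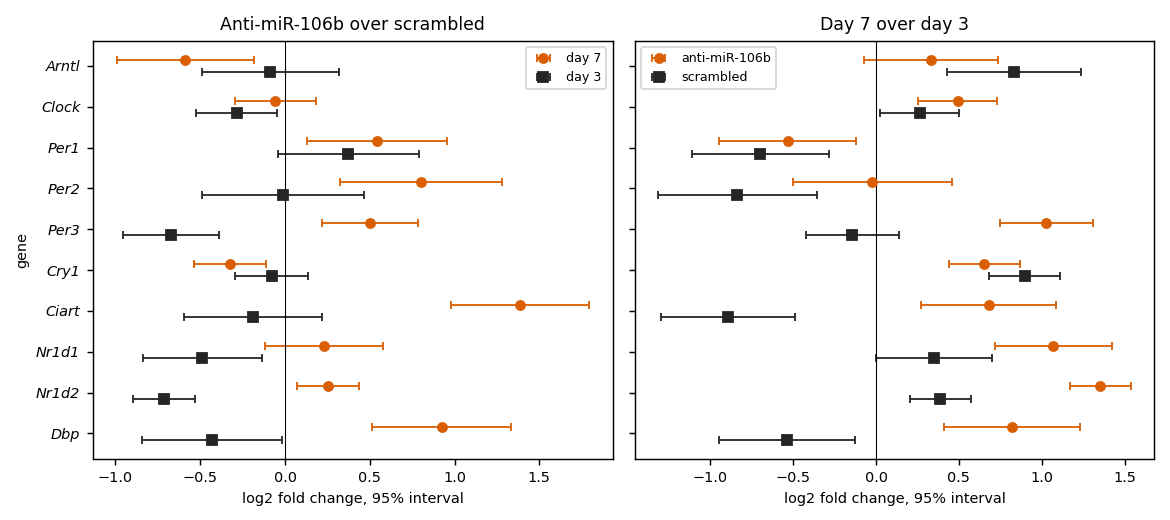
Log2 fold change of each clock gene with its 95% interval (horizontal axis), for anti-miR-106b over scrambled on each day on the left and for day 7 over day 3 in each arm on the right. At day 3 the intervals of Nr1d2, Per3, Nr1d1, Dbp and Clock lie under 0, of which the first 3 passed after adjustment; between days, the arms lie on opposite sides of 0 for Ciart, Dbp and Per3. With total-read scaling Ciart at day 3, Per2, Arntl, Cry1, Clock, Nr1d1 and Nr1d2 change sign in at least 1 comparison; relative to the shifted median of all genes none of them does, apart from Per2 at 0.00 between days in anti-miR-106b muscle.

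Between day 3 and day 7 the clock genes changed in both arms. In anti-miR-106b muscle Nr1d2, Nr1d1, Per3, Dbp, Cry1 and Clock rose and Per1 fell, and Ciart was higher. In scrambled muscle Cry1, Arntl, Nr1d2 and Clock rose and Per2, Per1 and Dbp fell, and Ciart was lower. Counting Ciart, 7 of the 10 passed as higher and 1 as lower in anti-miR-106b muscle, where 78.7% of all tested genes passed, 37.9% as higher and 40.8% as lower. In scrambled muscle 4 passed as higher and 4 as lower, where 68.2% of all genes passed, 32.9% as higher and 35.3% as lower. These comparisons share their libraries with the inhibitor contrasts, including the day 7 libraries that singled out Ciart, so Ciart's values over time are a description. For the other genes the p-values test the days within an arm and are no separate support for a difference between the arms.

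Cry1 and Nr1d2 rose in both arms. Cry1 averaged 3.67 ± 0.16 log2 CPM at day 7 and 3.02 ± 0.07 at day 3 in anti-miR-106b muscle (SD, n = 3 each), a change of 0.65 ± 0.10 (SE, adjusted p = 3.20e-05). In scrambled muscle Cry1 averaged 4.00 ± 0.16 at day 7 and 3.10 ± 0.02 at day 3, a change of 0.90 ± 0.10 (SE, adjusted p = 3.16e-06). No day 7 library overlapped a day 3 library in either arm. Nr1d2 averaged 7.09 ± 0.11 at day 7 and 5.74 ± 0.07 at day 3 in anti-miR-106b muscle, a change of 1.35 ± 0.09 (SE, adjusted p = 4.80e-09), or 2.56-fold. In scrambled muscle it averaged 6.84 ± 0.17 at day 7 and 6.45 ± 0.07 at day 3, a change of 0.39 ± 0.09 (SE, adjusted p = 0.00112). The day 3 levels of Nr1d2 differed more between the arms than the day 7 levels did. Nr1d1 and Per3 were likewise lowest in anti-miR-106b day 3 muscle. In anti-miR-106b muscle Nr1d1 rose by 1.07 ± 0.16 (SE, adjusted p = 3.28e-05) and Per3 by 1.03 ± 0.13 (SE, adjusted p = 5.99e-06), whereas in scrambled muscle Nr1d1 differed by 0.35 ± 0.16 (SE, adjusted p = 0.0693) and Per3 by -0.14 ± 0.13 (SE, adjusted p = 0.350). Thra, the antisense neighbour of Nr1d1, rose as well, by 0.59 ± 0.08 in anti-miR-106b muscle (SE, adjusted p = 1.18e-05) and 0.53 ± 0.08 in scrambled muscle (SE, adjusted p = 6.08e-05). For Nr1d1 the scrambled value passed without scrambled day 7 replicate 2 (0.0289), without scrambled day 3 replicate 2 (0.0487) or without anti-miR-106b day 7 replicate 3 (0.0496). For Per3 it passed without scrambled day 7 replicate 3, at -0.31 (0.0210).

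Arntl and Per2 passed in scrambled muscle and missed the threshold in anti-miR-106b muscle. Arntl averaged 3.85 ± 0.23 log2 CPM at day 7 and 3.52 ± 0.06 at day 3 in anti-miR-106b muscle (SD, n = 3 each), a difference of 0.33 ± 0.19 (SE, adjusted p = 0.122) that passed without scrambled day 7 replicate 1 (0.0447) or 3 (0.0206). In scrambled muscle Arntl averaged 4.44 ± 0.51 at day 7 and 3.61 ± 0.09 at day 3, a rise of 0.83 ± 0.19 (SE, adjusted p = 0.00142). Per2 differed by -0.02 ± 0.22 in anti-miR-106b muscle (SE, adjusted p = 0.933) and fell by 0.84 ± 0.22 in scrambled muscle (SE, adjusted p = 0.00436). The difference between the arms in these changes contains the contrast that chose the set and is not read here. The same holds for Dbp, which passed in each arm. In anti-miR-106b muscle it rose by 0.82 ± 0.19 (SE, adjusted p = 0.00129), and in scrambled muscle it fell by 0.54 ± 0.19 (SE, adjusted p = 0.0229). The fall of Dbp was lost without scrambled day 7 replicate 2, at -0.26 (0.116), or without scrambled day 3 replicate 2, at -0.52 (0.0573). Ciart differed in the same directions as Dbp, by 0.68 ± 0.19 in anti-miR-106b muscle and by -0.89 ± 0.19 in scrambled muscle (SE).

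Per1 fell in both arms. The change was -0.53 ± 0.19 in anti-miR-106b muscle (SE, adjusted p = 0.0208) and -0.70 ± 0.19 in scrambled muscle (SE, adjusted p = 0.00546). The call in anti-miR-106b muscle was lost without anti-miR-106b replicate 2 of day 7 (0.0988) or of day 3 (0.0933). Clock rose by 0.49 ± 0.11 in anti-miR-106b muscle (SE, adjusted p = 0.000983) and by 0.26 ± 0.11 in scrambled muscle (SE, adjusted p = 0.0482). The scrambled call of Clock stood in 9 of 22 alternatives and was 0.12 (0.252) without scrambled day 7 replicate 1. It was also lost without anti-miR-106b day 7 replicate 2 and without any single day 3 library of either arm.

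Scaling bears on these comparisons more than on the others, because scaling by total reads moved the median of all genes to -0.65 in anti-miR-106b muscle and to -0.41 in scrambled muscle. On that scale the differences of Arntl (-0.30) and Clock (-0.13) in anti-miR-106b muscle and of Clock (-0.14), Nr1d1 (-0.06) and Nr1d2 (-0.02) in scrambled muscle turned negative. In anti-miR-106b muscle Ciart (0.06), Cry1 (0.03) and Dbp (0.19) no longer passed, and Per2 passed as lower (-0.65). Relative to the shifted median each of the 10 genes lay on the same side as before in both arms, apart from Per2 in anti-miR-106b muscle at 0.00.

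The inhibitor effect itself differed between the days for 5 of the 10 genes, where 22.3% of all tested genes did so, a contrast that contains the one that chose the set and from which nothing is read. The muscle fibre markers all rose between the days in both arms, by a median of 1.61 in anti-miR-106b muscle and 0.85 in scrambled muscle. Their part in the rise of Nr1d2, Nr1d1 and Per3 was not tested.

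**Figure D4:**
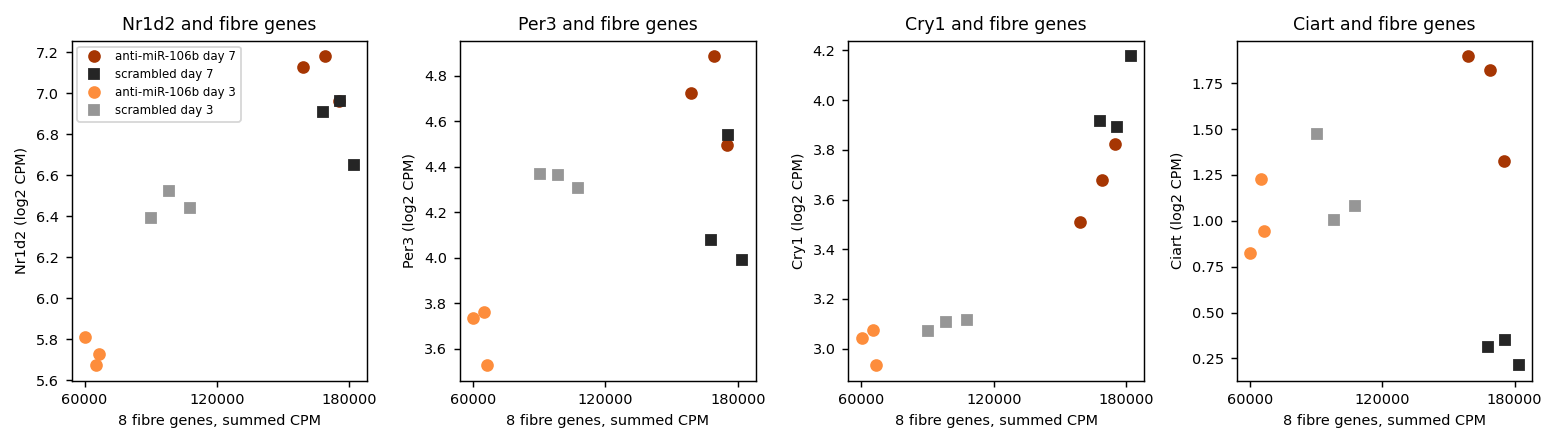
Nr1d2, Per3, Cry1 and Ciart (vertical axes, log2 CPM) against the summed level of 8 muscle fibre markers (horizontal axes, summed CPM) in the 12 libraries, coloured by group. Anti-miR-106b day 3 has the lowest fibre sum, at 60210 to 66470 CPM, and the lowest Nr1d2; the day 7 arms overlap in fibre sum and are apart for Ciart.

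A wider list of 26 genes outside the set, of which 24 reached the level needed for a test, gave a background for these values. Besides clock factors it held 8 genes of clock protein turnover, such as Csnk1d and Gsk3b, and 6 output genes, such as Nampt. At day 3, 11 fell and 2 rose with anti-miR-106b, with a median of -0.24, where 35.7% of all genes passed and 19.4% passed as lower. Of those that fell, 4 were turnover genes and 1 an output gene, and the 2 that rose were output genes. Rora, a receptor that activates Arntl and competes with REV-ERB, was among those that fell, by 0.67 ± 0.07 (SE, adjusted p = 4.39e-05). Tef, a relative of Dbp, fell by 0.52 ± 0.06 (SE, adjusted p = 6.13e-05), and Bhlhe41, an E-box repressor, by 0.59 ± 0.09 (SE, adjusted p = 0.000359). Genes of both the activating and the repressing side were thus lower. Between days 15 of the 24 rose and 6 fell in anti-miR-106b muscle, where 78.7% of all genes passed, 37.9% as higher and 40.8% as lower. In scrambled muscle 14 rose and 4 fell, where 68.2% of all genes passed, 32.9% as higher and 35.3% as lower.

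At day 7 none of the 24 passed between the arms, in the contrast that chose Ciart. Bhlhe40, an E-box repressor, was at 7.81, 7.56 and 7.33 log2 CPM with anti-miR-106b, against 7.25, 6.86 and 6.99 with the scrambled inhibitor. Cry2, the relative of Cry1, was at 5.08, 5.06 and 5.00, against 4.84, 4.83 and 4.85. Both lay higher in the inhibitor libraries without overlap, by 0.53 ± 0.11 and 0.21 ± 0.06 (SE). Timeless, listed with them, lay lower without overlap, by -0.22 ± 0.11, and Bhlhe41 differed by 0.18 ± 0.09 with overlap (SE). Nfil3, which represses D-box genes, differed by -0.34 ± 0.16 (SE) and Npas2, a stand-in for Clock, by -0.37 ± 0.15 (SE), both with overlap. Cry2 was among the genes most like Ciart. Over deviations of the 12 libraries from their group means, the highest Pearson r with Ciart among 14053 other genes were those of Stc2 (0.93), Slc35b4 (0.93), Cry2 (0.90), Fam174b (0.89) and Pdgfrb (0.89). For Dbp they were Brca2 (0.96), Dock5 (0.93), Pnp2 (0.92), Tmem131 (0.91) and Kif13b (0.91), and for Arntl they included Yipf7 (0.99), Spast (0.98), Arpp19 (0.98) and Hdgf (0.97). These values are the highest among many genes, in 12 libraries that share their scaling, and no test was read from them. Apart from Cry2, none of the genes named here for Ciart, Dbp or Arntl is on the clock lists.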

How the data were processed

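RNA was measured by sequencing in 12 muscle libraries. The authors worked on build mm10 with STAR and featureCounts, edgeR 3.20.9, limma 3.34.9, Trim Galore 0.4.3.1 and FastQC 0.72, per the submitters' processing notes, in an order and with settings not given in the sources used here. The authors deposited log2 CPM values. Undoing the logarithm gave equal steps in each column, hence the reads of each gene (whole within 0.001) and library totals; a prior averaging 0.25 reads had been added.

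The deposited log2 values were fitted in limma 3.58.1 (R 4.3.3) on 4 group means, using all 12 libraries together and letting the prior variance depend on expression (8 residual and 5.59 prior degrees of freedom). Genes at 1 CPM or more in at least 3 libraries were tested, which kept 14063. Tests were two-sided. The p-values were adjusted by Benjamini-Hochberg over those genes, separately per comparison, and called a pass when the adjusted p was below 0.05. Counting errors and intervals cover what they name: counting error rests on reads without molecular identifiers, and 95% intervals on the limma fit.

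The 10 genes and all gene lists were chosen with earlier results of these data known. Named genes were the 10, up to 4 of each list with the smallest p in the comparison described, the 5 genes with the highest r with Ciart, Dbp and Arntl, and the antisense neighbours. Some genes that this rule names are not reported here. The gene next to the threshold at day 7 was singled out after its values were seen. Gene positions and 3′ UTRs came from GENCODE M21, promoters and microRNAs from RefSeq GRCm38.p6, the assembly of mm10. Libraries with the same replicate number were not paired, since the labels do not say that a number marks a shared animal or day. Between the arms of a day, residuals of libraries with the same number had correlations across genes of -0.04 to 0.14. These values do not show if animals were shared. Alternatives were other filters, an added pseudocount, total-read and quantile scaling, fits of the compared groups alone, library weights, a prior without trend, a replicate block, each library left out and voom weights on the recovered reads.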

Additional observations from a re-analysis of the deposited data

Results flagged for a closer look

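The effect of anti-miR-106b differed between day 7 and day 3 for 5 of the 10 clock genes, by a limma test of the difference itself, where 22.3% of all tested genes did so. The difference includes the day 7 contrast that chose the set, so the values are a description and support nothing. The change of the inhibitor effect, day 7 minus day 3, was 1.57 for Ciart, 1.35 for Dbp, 1.17 for Per3, 0.97 for Nr1d2 and 0.72 for Nr1d1, on the log2 scale. For Ciart it came mainly from day 7 (1.39, against -0.19 at day 3), and for Nr1d2 mainly from day 3 (0.25 at day 7, against -0.71 at day 3). For Dbp (0.92 and -0.43) and Per3 (0.50 and -0.67) the arms differed in opposite directions on day 7 and day 3. Muscle fibre markers moved likewise, 5 of 8 passing as higher in this difference with a median of 0.72, and their part was not tested.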

How the results depend on the processing

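Of 1090 values of the 10 genes under alternatives, 982 kept their direction and their side of the threshold, 41 lost a call, 45 gained one and 22 changed sign. With total-read scaling the inhibitor effect at day 3 turned to 0.0023 for Ciart, 0.18 for Per2, 0.10 for Arntl and 0.11 for Cry1, all negative relative to the shifted median of all genes. The same scaling turned day 7 against day 3 to -0.30 for Arntl and -0.13 for Clock in anti-miR-106b muscle and to -0.14 for Clock, -0.0556 for Nr1d1 and -0.0195 for Nr1d2 in scrambled muscle, and the change of the inhibitor effect to -0.0513 for Per1; 5 of the 10 genes, 3 higher and 2 lower, then passed between days in anti-miR-106b muscle. Quantile normalization moved Per2 between days in anti-miR-106b muscle to 0.48 (adjusted p = 0.0451) and ended the call of Per2 in scrambled muscle (0.0794) and of Per1 in anti-miR-106b muscle (0.0882). Library weights turned the log2 fold change of Per2 between days in anti-miR-106b muscle to 0.0357. They turned that of Clock with the inhibitor at day 7 to 0.0185, and neither passed. With single libraries left out, Per2 ranged from -0.19 to 0.14 with the inhibitor at day 3 and from -0.17 to 0.16 between days in anti-miR-106b muscle, Clock from -0.14 to 0.0873 with the inhibitor at day 7, and Per1 from -0.0472 to 0.43 in the change of the effect.

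Clock genes past the threshold with the inhibitor numbered 6 at day 3 with the compared groups alone or with library weights (2 to 6 with single libraries left out), and 0 and 3 under these at day 7 (0 to 4 with single libraries left out: 0 without replicate 1 of anti-miR-106b day 7 or replicate 2 of scrambled day 7, 4 without scrambled day 7 replicate 3), in the contrast that chose the set. Library weights called 9 for the change of the effect. Over all tested genes, the inhibitor at day 7 called 9, but 20 with 0.5 CPM as the minimum, 15 without a filter, 35 with 1 CPM added, 28 with total-read scaling, 17 with quantile normalization, 2 with day 7 groups alone, 58 with library weights, 16 with voom weights, an alternative chosen after seeing the data, and 0 to 457 with single libraries left out (0 without scrambled day 7 replicate 2, 457 without scrambled day 7 replicate 1). Library weights called 8820 of all genes for the inhibitor at day 3, against 5022, and 5334 for the change of the effect, against 3134; that last count was 2063 to 4555 with single libraries left out. The causes were not tested.

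A replicate block, for numbers not treated as pairs, called 23 genes for the inhibitor at day 7 and 4, 1, 8, 8 and 5 clock genes for the inhibitor at day 3 and at day 7, between days in anti-miR-106b and in scrambled muscle, and for the change of the effect; Clock (0.0351) was the one added at day 3. Depth limits Ciart and Per2, whose fewest reads were 40 and 56.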

Other observations

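Glucocorticoids set peripheral clocks and act on Per1, so 8 genes they induce were read beside the clock. At day 3, 3 of the 8 fell and 1 rose with anti-miR-106b, where 35.7% of all tested genes passed and 19.4% passed as lower. Klf9, a transcription factor with a daily rhythm, fell by 0.78 ± 0.11 on the log2 scale (SE, adjusted p = 0.000243), Zbtb16 by 0.66 ± 0.18 (SE, adjusted p = 0.0118) and Tsc22d3 (GILZ) by 0.27 ± 0.08 (SE, adjusted p = 0.0178), while Ddit4, an inhibitor of mTORC1, rose by 0.76 ± 0.15 (SE, adjusted p = 0.00178). At day 7 none of the 8 passed in limma. Between days 6 rose and 2 fell in anti-miR-106b muscle, where 78.7% of all genes passed, 37.9% as higher and 40.8% as lower. In scrambled muscle 6 rose and 1 fell, where 68.2% of all genes passed, 32.9% as higher and 35.3% as lower.

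Of 8 cold-inducible and heat shock genes, 3 rose with anti-miR-106b at day 3 and none fell. Over all tested genes 35.7% passed, and 2296 of the 14063 passed as higher. Rbm3, a cold-inducible RNA-binding protein, rose by 0.26 ± 0.08 (SE, adjusted p = 0.0217), and the chaperone genes Hsp90aa1 and Dnajb1 rose by 0.37 ± 0.10 (SE, adjusted p = 0.0108) and 0.47 ± 0.16 (SE, adjusted p = 0.0340). None passed at day 7 in limma. Between days 3 fell in anti-miR-106b muscle, and 3 fell and 1 rose in scrambled muscle, fewer than the 78.7% and 68.2% of all genes that passed.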
